A study of Mus musculus with 42 samples.

Results

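The comparison described here sets 72 h of culture without IL-21 against 24 h without IL-21, in the bulk RNA-Seq time course of mouse uterine tissue-resident NK (trNK) cells. It rests on 4 of the 42 libraries of the series, 2 at each time, and on the 3503 genes that had an RPKM (counts per kilobase of gene length and 1e6 counts of the library) above 10 in both libraries of any of the 8 time-course groups. The cells came from wild-type C57BL/6 females, 8 to 12 weeks old by the study's methods, at gestation day (gd) 6.5, and by those methods were sorted as NK1.1+NKp46+CD49a+CXCR6- cells of the trNK-V subgroup, which carries little or no 4-1BB and CD55. All groups were kept in RPMI medium with 10% serum, antibiotics and IL-15, at 10 ng/ml by the sample characteristics and 15 ng/ml by the treatment protocol, and the parallel cultures also received 20 ng/ml IL-21. RNA was copied and amplified with a single-cell full-length mRNA kit and 5 ng entered each library. The study describes its time course as representative of 2 separate experiments but does not say whether these are the 2 replicates or whether replicates were separate cultures or animals, so p-values measure the spread between these samples, which may be technical. In bulk libraries, fewer cells of a type and less RNA per cell cannot be told apart.

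IL-15 is a growth and survival factor of NK cells, and resting and dividing NK cells differ in a large set of cell cycle genes. DNA replication genes are switched on in late G1 and S phase by E2F transcription factors, whereas mitosis genes peak in G2 and M phase through promoter elements such as the cell cycle homology region and the CCAAT box. Uterine trNK cells are known for granzymes, for secreted factors such as osteopontin (Spp1) and for inhibitory Ly49 and NKG2 receptors. RNA transcribed from the mitochondrial genome carries poly(A) tails and is captured beside nuclear mRNA.

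The libraries at 72 h held fewer genes and more mitochondrial RNA than those at 24 h. Counts on mitochondrial genes made up 4.76% and 4.58% of the total in 24 h replicates 1 and 2 (95% Wilson intervals 4.76 to 4.77 and 4.57 to 4.58), and 8.44% and 11.77% in the 72 h replicates (8.43 to 8.45 and 11.76 to 11.78). The intervals cover counting error only. All other time-course libraries lay between 1.90% and 5.73%, so the pair at 72 h without IL-21 stood above the other 14. The mean difference was 5.44 percentage points (4.67% ± 0.13 against 10.1% ± 2.35, SD, n = 2 each). Ribosomal RNA of the mitochondria (mt-Rnr1 and mt-Rnr2) held 2.62 of these points, going from 1.25% ± 0.11 to 3.88% ± 1.46, and the 13 protein-coding mitochondrial genes held 2.80 points.

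At an equal depth of 28541369 counts, the total of the smallest time-course library, 13324 and 13964 genes had a count at 24 h, against 10728 and 11291 at 72 h, a mean difference of -2634. The 100 most abundant genes took 41.42% and 41.54% of counts at 24 h, and 48.92% and 52.98% at 72 h. Without mitochondrial genes these means were 39.7% ± 0.18 and 46.8% ± 1.83, so the concentration of counts was also present among nuclear genes. The thymosin gene Tmsb4x was the most abundant gene in all 4 libraries. For each of these measures the groups did not overlap, and the two-sided exact permutation p was 0.333, the smallest that 2 against 2 libraries allow. In the cultures with IL-21 the mitochondrial share went from 2.54% ± 0.37 to 5.05% ± 0.96, and the genes at equal depth from 14920 ± 165 to 12942 ± 1327.

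The pair at 72 h without IL-21 stood apart in another way. Of the 3138 genes with an RPKM above 10 in either replicate, 186 had 0 counts in the other replicate, 106 missing from replicate 2 and 80 from replicate 1. The same number was 3 at 24 h without IL-21, 33 at 72 h with IL-21 and at most 2 in the other time-course groups. The replicates were more than 2-fold apart for 32.6% of these genes at 72 h without IL-21, 32.2% at 72 h with IL-21 and 4.4% at 24 h without IL-21. Totals were 28574991 and 41644246 counts at 72 h and 30328290 and 42878924 at 24 h, so the depths were alike. The part of library complexity in the gene results that follow was not tested.

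**Figure D1:**
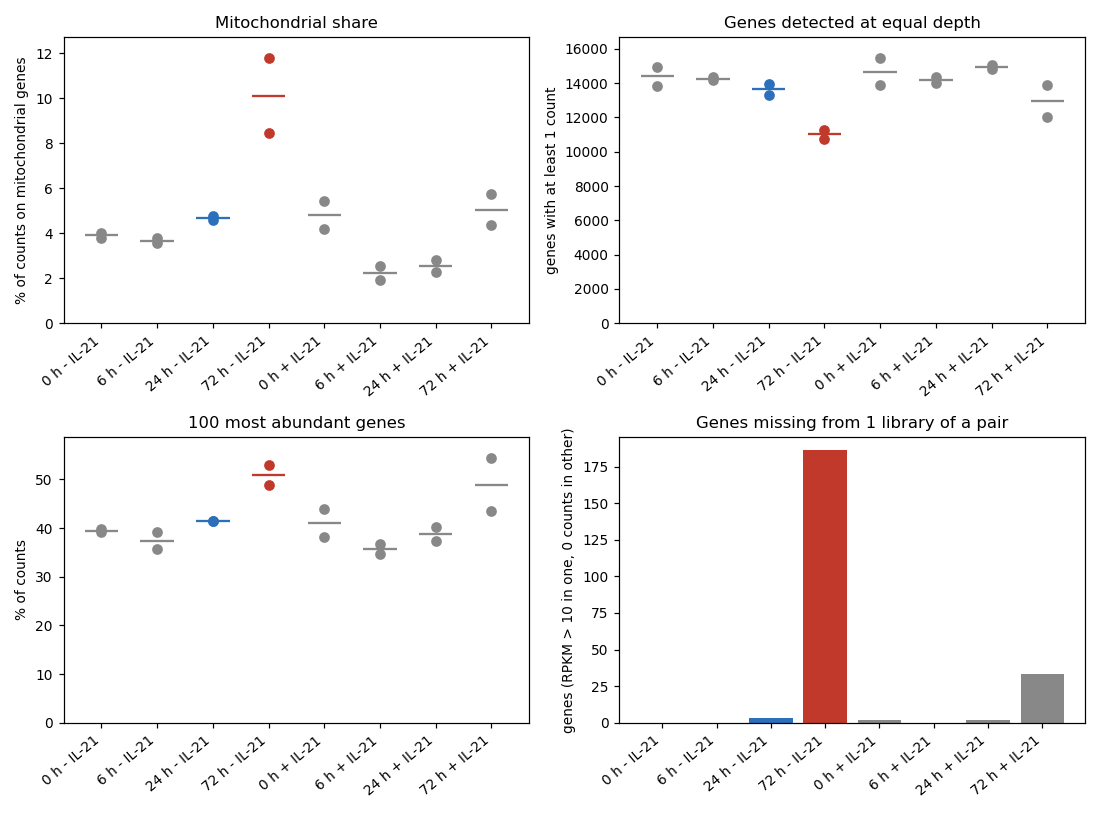
Library measures by time-course group: mitochondrial share in % of counts, genes with at least 1 count at equal depth, share of counts in the 100 most abundant genes (points, libraries; lines, means of 2), and the number of genes above an RPKM of 10 in one replicate with 0 counts in the other (bars). The 72 h - IL-21 libraries (red) have mitochondrial shares of 8.44% and 11.77% and 186 genes missing from a replicate, against 4.76%, 4.58% and 3 at 24 h (blue).

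Of 11 NK markers, 10 had an RPKM above 1 in both libraries at each time. The other, Tbx21, had 0.053 and 1.46 RPKM at 24 h and 0 and 1.94 at 72 h. The summed RPKM of the 11 was 17400 and 16900 at 24 h and 17000 and 15300 at 72 h, with Nkg7 and Klrd1 the largest at both times. Within the sum Gzmb went from 2050 and 2420 to 987 and 517, and Klrd1 from 3310 and 2990 to 4570 and 5670. Ncr1 (NKp46) had 1030 and 948 RPKM at 24 h and 925 and 1010 at 72 h, and Klrb1c (NK1.1) 454 and 429 at 24 h and 577 and 519 at 72 h. Cxcr6, whose protein the gate selects against, had 14.8 and 39.9 RPKM at 24 h and 83.5 and 6.68 at 72 h, and the 8 markers of ILC1 and ILC2 that include it summed to 31.1 and 53.2, then 106 and 24.8. Among genes that mark other cells, neutrophil, erythroid and stromal lists summed to at most 0.0859 RPKM in each of the 4 libraries. The 12 macrophage markers summed to 38.4 and 71.8 RPKM at 24 h and to 9.19 and 0.00754 at 72 h, with C1qa, Adgre1 and Lyz2 at 0 counts and Cd68 the main contributor in the first 3 of these libraries. The T cell markers summed to 564 and 630, then 773 and 373, mostly Trbc2. Of the others, Cd3g had 54.9 and 74.7 RPKM at 24 h and 93.4 and 29.1 at 72 h, Cd3d 18.1 and 42.6, then 15.2 and 2.12, Lat 15.6 and 20.8, then 29.6 and 5.36, and Trac 7.62 and 20.7, then 7.19 and 0.0514. Cd8a, Cd8b1, Bcl11b, Cd5 and Cd6 were at 0, and Cd3e and Cd4 at no more than 0.0174 RPKM. B cell markers summed to 175 and 170 RPKM at 24 h and 176 and 134 at 72 h, from Ighm and Ighd, and Pax5 and Ms4a1 were at 0. Epithelial markers summed to 14.2 and 13.2, then 7.93 and 4.55, from Epcam (9.5 and 6.45, then 3.6 and 0), Cdh1 (2.54 and 4.55, then 4.3 and 4.54) and Muc1 (2.14 and 2.16, then 0.0298 and 0), with Muc1 called lower (edgeR adjusted p = 0.00115). The part of such RNA in the results was not tested. Tnfrsf9, which encodes the 4-1BB that the gate selects against, had 249 and 284 RPKM at 24 h, and Cd55 had 51.9 and 40.1, so neither transcript was absent.

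Between 24 h and 72 h, more genes fell than rose. By edgeR's quasi-likelihood test over all 16 time-course libraries, 344 of 3503 genes were called lower at 72 h (9.82%) and 174 higher (4.97%), with a call needing a fold change over 2 at a Benjamini-Hochberg adjusted p under 0.05. All 344 lower genes and 172 of the 174 higher genes had libraries whose RPKM did not overlap between the times. The same held for 47.6% of all tested genes with both 72 h libraries below and 17.0% with both above. These RPKM leave out the TMM factors, so a gene can lie below with a fitted rise, as Nkg7 did (log2 fold change 0.09). The shares thus do not measure a broad fall. The median log2 fold change was -0.04 over all tested genes, 1.5 over those called higher and -2.78 over those called lower, with genes absent at 72 h set to a bound. The filter favours genes that are high in some group: 172 of the higher genes passed it at 72 h without IL-21 and 109 at 24 h, and 247 of the lower genes passed it at 24 h and 79 at 72 h. Called genes were mostly protein coding, 327 of the lower and 129 of the higher ones. Predicted genes and pseudogenes, which are counted but not named here, made up 34 of the higher and 15 of the lower calls.

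The balance of the calls depended on scaling and on the groups fitted. With total counts alone in place of TMM scaling (factors 1.012 and 1.012 at 24 h, 0.859 and 0.736 at 72 h), 437 genes were lower and 79 higher, the higher share of calls went from 33.6% to 15.3%, and the median of all genes moved to -0.38. A fit on the 4 libraries alone called 3 genes, Stmn1, Ccnb2 and Ccnb1, and 535 at an unadjusted p below 0.05. It has 2 residual degrees of freedom, while the main fit shares each gene's spread over all 8 groups. The replicates were more than 2-fold apart for 32.6% of genes at 72 h without IL-21 and 4.4% at 24 h without IL-21. The p-values of the main fit thus draw partly on groups with closer replicates. Why the calls differed was not tested. Without 24 h replicate 1 or 2 the calls were 238 and 227, without 72 h replicate 1 they were 1139, and without 72 h replicate 2 they were 512.

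A group of genes was not counted at all at 72 h. Of the tested genes, 67 had 0 counts in both 72 h libraries, whereas 1 gene, Il10, had 0 counts in both 24 h libraries, and Il10 was at 0 at 72 h too. A further 207 genes had 0 counts in 1 of the 2 libraries at 72 h, against 7 at 24 h. Of the 344 genes called lower, 63 were at 0 in both 72 h libraries, 43 in 1 of them, and 238 had counts in both. Taking 3 counts per library as the floor for an absent gene, the fall of the absent genes was at least 8.21-fold for the smallest bound, 135-fold for the median and 5720-fold for the largest. These bounds describe the counted libraries and cover counting error only. They are not limits on the fall in the cells, since 186 genes above an RPKM of 10 in 1 of the 72 h replicates had 0 counts in the other. By a stricter definition, 61 of 2688 genes above an RPKM of 10 in both 24 h libraries were below 1 in both 72 h libraries, and 1 gene took the reverse path. Between the 72 h replicates themselves the same limits separated 182 genes in one direction and 113 in the other, against 4 and 3 between the 24 h replicates. Without 72 h replicate 1 the lost genes numbered 205.

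**Figure D2:**
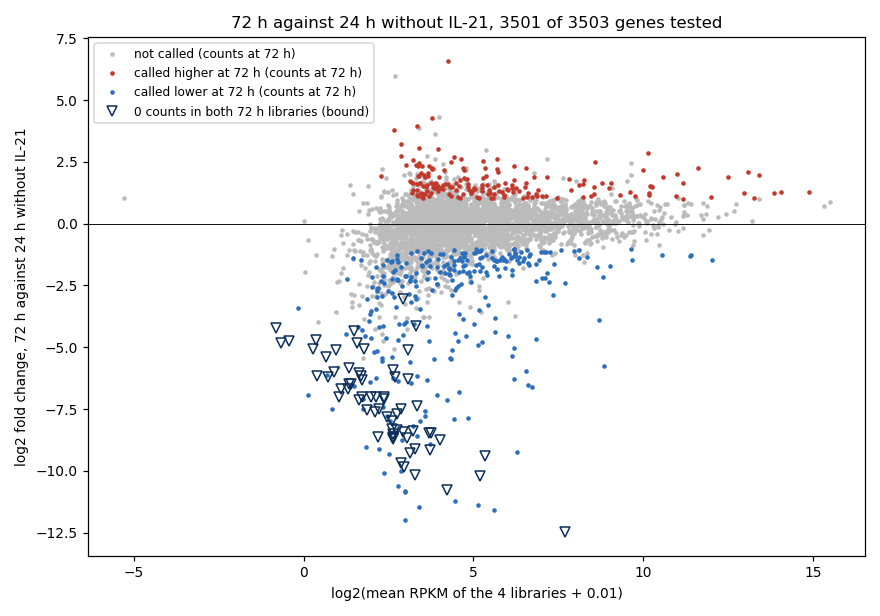
Fitted log2 fold change (72 h against 24 h without IL-21) over the log2 of the mean RPKM of the 4 libraries plus 0.01, for each tested gene with counts that allow a value. Red and blue points are the 174 genes called higher and the genes called lower, and open triangles are genes with 0 counts in both 72 h libraries, drawn at their bound from a floor of 3 counts, of which the lowest is Ccnb2.

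The largest falls were in genes of cell division. Ccnb2 (ENSMUSG00000032218, chr9:70407692-70421547, minus strand, GRCm38) encodes cyclin B2, a partner of Cdk1 at entry into mitosis. It had 434 and 398 RPKM at 24 h, from 20146 and 26131 counts, and 0 counts in both 72 h libraries. By the floor of 3 counts it was at least 5720-fold lower in these libraries (edgeR adjusted p = 6.66e-07). The bounds of the other genes are to be read likewise. Cenpk (chr13:104228611-104252392, plus strand), a protein of the inner kinetochore, had 38.2 and 35.7 RPKM at 24 h and 0 counts at 72 h, at least 1730-fold lower (edgeR adjusted p = 5.1e-08). Both genes had been present earlier in the same culture: Ccnb2 had 115 and 95.2 RPKM at 0 h and 323 and 326 at 6 h, and Cenpk 36.8 and 42.1, then 39.9 and 49.5. In the culture without IL-21, then, these transcripts were counted at 3 times and absent at the last. Pbk, a mitotic kinase, and Esco2, which acetylates cohesin, were at 0 counts as well, after 91.7 and 54.9 RPKM and 24.3 and 14.2 RPKM at 24 h, falls of at least 1180-fold and 1150-fold.

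The promoters of 3 of these genes are shown, since their transcripts fell together and were at 0 in both 72 h libraries. They are the reference sequences from RefSeq (GRCm38.p6), 250 bases before to 50 after the annotated start, written 5′ to 3′ on the gene's strand. For Cenpk the table holds 3 starts, and the window of its first entry, the most upstream, is shown, as the first entry of each gene was used in the counts. Capitals mark the cell cycle homology region (TTTGAA or its complement TTCAAA) and the CCAAT box (CCAAT or ATTGG). Ndc80 encodes an outer kinetochore protein that binds microtubules.
Ccnb2, chr9:70421505-70421804, minus strand: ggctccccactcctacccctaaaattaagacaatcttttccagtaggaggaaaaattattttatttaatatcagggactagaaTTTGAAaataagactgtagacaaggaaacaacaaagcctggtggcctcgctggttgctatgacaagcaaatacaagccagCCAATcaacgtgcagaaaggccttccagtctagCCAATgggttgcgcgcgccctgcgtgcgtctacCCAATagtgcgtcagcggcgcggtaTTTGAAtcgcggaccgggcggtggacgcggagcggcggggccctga
Cenpk, chr13:104228361-104228660, plus strand: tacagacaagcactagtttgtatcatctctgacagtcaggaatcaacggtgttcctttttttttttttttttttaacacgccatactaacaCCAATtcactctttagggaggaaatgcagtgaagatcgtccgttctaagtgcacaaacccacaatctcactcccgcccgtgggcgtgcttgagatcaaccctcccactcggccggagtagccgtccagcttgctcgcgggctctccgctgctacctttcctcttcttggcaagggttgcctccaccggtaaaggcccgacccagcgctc
Ndc80, chr17:71526808-71527107, minus strand: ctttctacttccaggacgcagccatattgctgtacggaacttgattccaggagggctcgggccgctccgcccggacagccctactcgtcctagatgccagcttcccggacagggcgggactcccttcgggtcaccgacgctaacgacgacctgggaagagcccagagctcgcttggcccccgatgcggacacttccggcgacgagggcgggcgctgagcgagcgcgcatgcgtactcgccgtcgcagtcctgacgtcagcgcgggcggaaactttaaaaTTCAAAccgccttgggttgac
The Ccnb2 window holds 2 matches to the homology region and 3 CCAAT boxes, that of Cenpk 1 CCAAT box, and that of Ndc80 1 homology region. Among tested genes of the mitosis list with a promoter in the table, 14 of 21 (66.7%) held the homology region and 16 (76.2%) a CCAAT box, on either strand. Among the genes at 0 counts in both 72 h libraries, 12 of 44 (27.3%) held the homology region and 24 (54.5%) a CCAAT box. The shares were 14.8% and 41.8% over all 2520 tested genes with a promoter, and 18.1% and 37.9% over all 27025 genes of the table. Of the DNA replication genes, 1 of 22 (4.5%) held the homology region and 14 (63.6%) a CCAAT box. A match describes the letters in these windows, and binding was not measured.

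Of the mitosis list (kinetochore, spindle and mitotic kinase genes), 26 of 27 tested genes fell and none rose, against 9.82% lower among all genes. The median RPKM of the 27 genes was 43.0 and 42.0 at 24 h and 0.0272 and 0.0186 at 72 h, so the median member went from above the filter to near 0. Ndc80, its partner Nuf2, the kinesin Kif11 and the Aurora kinases Aurka and Aurkb were at 0 counts in both 72 h libraries, with Ccnb2. Ndc80 had 16.5 and 14.7 RPKM at 24 h, and Nuf2 13.1 and 16, giving falls of at least 910-fold and 829-fold. Hmmr, Cdca3, Cenpe, Tpx2 and Cdca8 each had 0 counts in 1 of the 72 h libraries and at most 0.0335 RPKM in the other, after 10.5 to 83.3 RPKM at 24 h. Ccnb1, cyclin B1, went from 35.6 and 51.6 RPKM to 0.0166 and 0.0114 (edgeR adjusted p = 4e-08).

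Other members of the list kept counts at 72 h. Stmn1 (ENSMUSG00000028832, chr4:134468320-134473843, plus strand) encodes stathmin, which destabilizes microtubules, and had 934 and 882 RPKM at 24 h and 11.9 and 14.3 at 72 h, a fall of 5.75 on the log2 scale (SE 0.40, edgeR adjusted p = 4.74e-06). The Cdk-binding proteins Cks1b and Cks2 fell by 3.90 (SE 0.42) and 1.70 (SE 0.32), Cks2 from 832 and 855 RPKM to 194 and 212. The condensin genes Smc2 and Smc4, which are also used outside mitosis, fell by 2.87 and 1.10. The replicates disagreed for Cdk1, the mitotic kinase itself, which had 43.0 and 42.0 RPKM at 24 h, 3.39 in 72 h replicate 1 and 0.00973 in replicate 2. Birc5 (201 and 170, then 5.11 and 0.0282) and Ube2c (198 and 220, then 3.71 and 0.0185) had the same form, with replicate 2 the lower. Pttg1, securin, was the exception in the list, with 85.7 and 75.7 RPKM at 24 h, 117 and 130 at 72 h and a fitted log2 change of 0.97 (edgeR adjusted p = 0.0299), just under the required fold. Mki67, the gene of the proliferation marker Ki-67, did not pass the filter on low values and had 9.86 and 9.50 RPKM at 24 h and 0 and 0.00716 at 72 h. With each of the 4 libraries left out in turn, 22 to 26 of the mitosis genes were called lower.

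Most genes that copy DNA fell as well. Of 29 tested replication genes, 22 fell (9.82% of all genes did) and none rose, and the median RPKM went from 22.6 and 19.1 to 0.703 and 0.808. Pcna, the sliding clamp of the replication fork, had 370 and 346 RPKM at 24 h and 72.7 and 37.1 at 72 h (log2 fold change -2.39, SE 0.27, edgeR adjusted p = 0.000131). Gmnn, geminin, which blocks relicensing of origins, fell by 2.31 (SE 0.42) from 192 and 207 RPKM to 15.8 and 44.7. Tyms, thymidylate synthase, fell by 3.84 (SE 0.35) from 47.8 and 50.5 to 2.55 and 2.79. Of the 7 tested genes of the replicative helicase, 6 fell. Among them Gins1 had 32.6 and 19.3 RPKM, then 0 counts in both 72 h libraries, and Mcm3 had 6.15 and 7.15, then 0.0653 and 0. The helicase gene that was not called, Gins4, had 85.1 and 55 RPKM, then 16.2 and 33.0 (log2 fold change -1.12, edgeR adjusted p = 0.0848). Of the replication genes, 7 were not called, among them Rpa3, which had 337 and 306 RPKM at 24 h and 320 and 278 at 72 h, and Orc3, with 16 and 11.1, then 6.10 and 30.2. Without single libraries of the comparison, 17 to 25 of the replication genes were called lower.

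**Figure D3:**
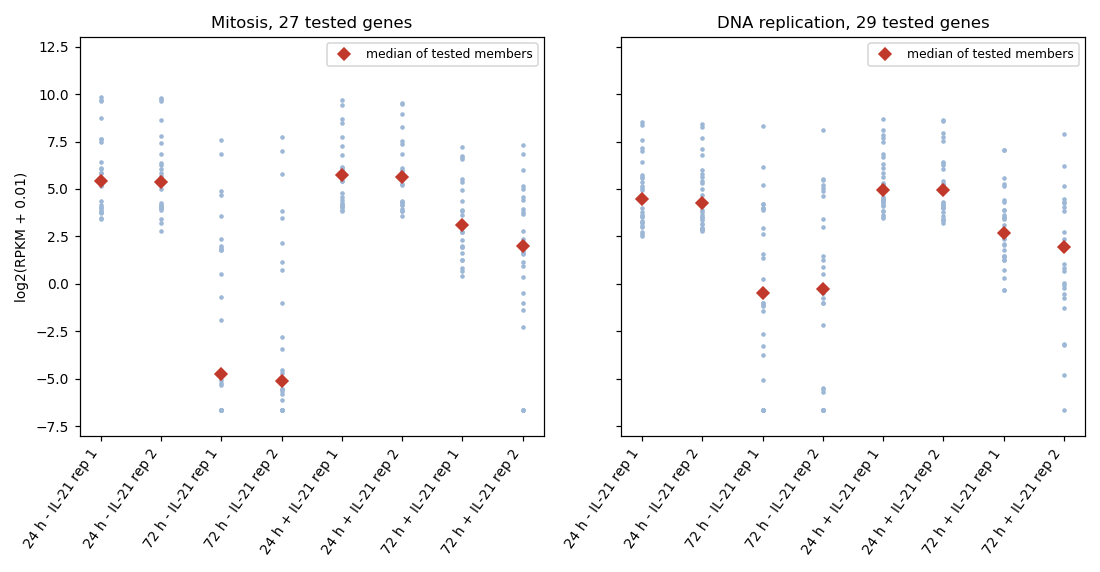
RPKM, as log2(RPKM + 0.01), of the tested mitosis (27) and DNA replication (29) genes in each library at 24 h and 72 h, without (-) and with (+) IL-21. Small points are genes and diamonds the median of the list in a library. The medians of the mitosis list are 43.0 and 42.0 RPKM at 24 h without IL-21 and 0.0272 and 0.0186 at 72 h, and 8.48 and 4.04 at 72 h with IL-21.

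Effector genes of trNK cells fell in part. Spp1 (ENSMUSG00000029304, chr5:104435118-104441050, plus strand), osteopontin, had 6910 and 6170 RPKM at 24 h and 2570 and 1210 at 72 h, a fall of 1.48 on the log2 scale (SE 0.32, edgeR adjusted p = 0.0109). Of the 16 tested cytolysis genes, 6 fell (9.82% of all genes did) and none rose. Gzme (ENSMUSG00000022156, chr14:56117626-56120625, minus strand) had 95.4 and 67.7 RPKM at 24 h and 0 counts at 72 h, at least 672-fold lower, and Gzmd had 172 and 138, then 0 and 0.349. Gzme and Gzmd lie in 1 cluster of granzyme genes and are close in sequence, so reads may have been divided between them by the counting. Gzmc fell from 3440 and 4650 RPKM to 1570 and 1130 (log2 fold change -1.25, SE 0.26) and Gzmb from 2050 and 2420 to 987 and 517 (-1.26, SE 0.35), whereas the libraries of Gzma overlapped, with 5300 and 4360, then 1520 and 4500. Ctsc, the protease that activates granzymes, and Serpinb9, the granzyme B inhibitor, fell by 1.12 and 2.06. Perforin (Prf1) was low, at 11.9 and 12.8 RPKM and then 16.2 and 8.15, and Nkg7 and Srgn, which encode granule proteins, had log2 changes of 0.09 and 0.20 that did not pass the test. Without 24 h replicate 1 or 2, 3 and 2 cytolysis genes were lower. Gzmb lost its call without 24 h replicate 1 (edgeR adjusted p = 0.086), 24 h replicate 2 (0.163), 72 h replicate 2 (0.16) or either 24 h library with IL-21 (0.0508 and 0.051), Spp1 without 24 h replicate 1 (0.0639) or 72 h replicate 2 (0.0533), and Gzmc without 24 h replicate 2 (0.0892). Gzma was lower by 1.43 without 72 h replicate 2 (0.0238).

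Of 11 tested genes linked to stages of trNK cells, most of them genes of surface molecules, 6 fell (Spp1 among them) and none rose, where 9.82% of all genes fell. Part of the list was taken from the study of these cells and is not independent evidence of a direction. Tnfrsf9 (4-1BB), a costimulatory receptor, fell from 249 and 284 RPKM to 87.8 and 48.1 (log2 fold change -1.65, SE 0.40, edgeR adjusted p = 0.0189). Klrg1, an inhibitory receptor of mature NK cells, fell from 122 and 127 to 28.2 and 47.5 (-1.34, SE 0.35, adjusted p = 0.0256). Tnfsf4, the OX40 ligand, had 8.90 and 6.81 RPKM and then 0 counts in both libraries. Ifitm2 and Ifitm3, membrane proteins that restrict viruses, went from 179 and 187 to 57.3 and 37.0 and from 68.4 and 80.6 to 4.65 and 0.0354. Cd55, the complement regulator that defines the stages with 4-1BB, had 51.9 and 40.1 RPKM at 24 h and 49.3 and 15.0 at 72 h, which overlap. Tnfrsf9 was not called without 24 h replicate 1 (edgeR adjusted p = 0.0609), 24 h replicate 2 (0.0945) or 72 h replicate 2 (0.0905), and Klrg1 not without 24 h replicate 1 (0.0895), 24 h replicate 2 (0.11) or 72 h replicate 1 (0.0591). Cd55 was lower by 1.16 without 72 h replicate 1 (0.0154). Of the list, 1 gene was lower without 24 h replicate 1 and 2 without 24 h replicate 2.

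Most listed genes of the mitochondrial genome rose. Of 15 tested in the list, its rRNA and protein-coding genes, 11 were called higher (4.97% of all genes were), none lower, and in all 15 both 72 h libraries lay above both 24 h libraries, as in 17.0% of all tested genes. The ribosomal RNAs were among the largest rises of the list: mt-Rnr2 had 5820 and 5140 RPKM at 24 h and 12400 and 20700 at 72 h (log2 fold change 1.98, SE 0.38, edgeR adjusted p = 0.00531), and mt-Rnr1 4240 and 3860, then 9350 and 17100 (2.09, SE 0.51, adjusted p = 0.0183). The smallest called change was that of mt-Co1, cytochrome oxidase subunit 1, with 7430 and 7610 RPKM and then 11500 and 12600 (1.03, SE 0.23). Replicate 2 was the higher of the 72 h libraries for these 3 genes, as it was for the mitochondrial share. A further tested gene, the tRNA gene mt-Tp, is outside the list and was named after its values were seen: it had 815 and 684 RPKM, then 1580 and 1800, and was not called (1.53, edgeR adjusted p = 0.0703). Nuclear copies of mitochondrial sequence can share reads with these genes. Under total counts alone 6 of the 15 were called. The number also fell to 4 without 24 h replicate 1, 1 without 24 h replicate 2 and 3 without 72 h replicate 2, and was 15 without 72 h replicate 1 and without either 72 h library with IL-21.

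Nuclear genes of the respiratory complexes were mostly not called. Of 56 tested, 3 were called lower (9.82% of all genes were) and none higher, with a median log2 change of 0.06 that turned negative under total counts. Of those called, Uqcrc2 of complex III had 49.1 and 47.3 RPKM, then 24.2 and 9.99, and Sdhb of complex II 271 and 276, then 161 and 52.0. Cox6a2, an isoform of a cytochrome oxidase subunit, had 57.5 and 37.9, then 131 and 69.1, and was not called (log2 fold change 1.38, edgeR adjusted p = 0.212). The 75 tested cytosolic ribosomal protein genes had a median of 0.09, which also changed sign under total counts, and Rps27 alone was called. Under total counts 5 of these genes were called lower and 1 higher. Rps27 had 2780 and 3250 RPKM at 24 h and 7110 and 10200 at 72 h (1.89, SE 0.42, adjusted p = 0.0115). It has processed copies in the genome, so its reads may be divided, and it lost the call without 24 h replicate 1 (0.0888) or 2 (0.074). The nuclear respiratory genes called lower numbered 7 without 72 h replicate 1 and 1 without 72 h replicate 2 or any 24 h library, and the ribosomal protein genes called higher 3 without 72 h replicate 1.

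Of 24 tested NK receptors and adaptors, 6 rose (4.97% of all genes did) and 1, Klrg1, fell, with a median log2 change of 0.71 against -0.04 over all genes. Tyrobp, the DAP12 adaptor of activating receptors, had 11300 and 11800 RPKM at 24 h and 23700 and 21000 at 72 h (log2 fold change 1.30, SE 0.37, edgeR adjusted p = 0.0337). Hcst (DAP10), the CD94 gene Klrd1 and the Ly49 genes Klra4, Klra8 and Klra9 also rose, by 1.01 to 1.51, with Klra9 going from 854 and 613 to 1690 and 1600 RPKM. Ly49 genes are near copies of each other, so counts of single members are uncertain. The 17 others ranged from -1.48 (Cd247, the zeta chain, 10.6 and 5.72 RPKM and then 4.10 and 0.771) to 1.17 (Crtam). Under total counts alone 1 receptor was called higher. Tyrobp was under the required fold there (0.95, adjusted p = 0.0273), and its adjusted p was 0.0969 with edgeR's own filter, 0.156 without 24 h replicate 1, 0.163 without 24 h replicate 2, 0.0685 without 72 h replicate 2, and 0.0526 and 0.0528 without a 24 h library with IL-21. Receptors called higher numbered 1 without 24 h replicate 1, 0 without 24 h replicate 2 and 3 without either 24 h library with IL-21.

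Among 11 tested cytokine and chemokine genes, the chemokine genes Ccl5 and Ccl4 and the lymphotoxin gene Ltb were higher (4.97% of all genes were) and Spp1 was lower (9.82%). Ccl5, a chemokine that draws T cells and NK cells, had 946 and 1010 RPKM at 24 h and 2720 and 3480 at 72 h (log2 fold change 2.03, SE 0.32, edgeR adjusted p = 0.00151). Ccl4 went from 1550 and 1020 to 7600 and 2420, with 72 h replicates that were themselves far apart. Ifng, interferon gamma, was not measured stably: it had 72.7 and 14.4 RPKM at 24 h and 105 and 0.872 at 72 h. Its fitted log2 change of 0.51 (SE 1.23) became -5.18 without 72 h replicate 1. Cytokine genes called higher numbered 1 without 24 h replicate 1, 24 h replicate 2 or 72 h replicate 1, and 1 under total counts.

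Of 6 tested transcription factor genes of NK cells, Eomes rose and the other 5 were not called, where 4.97% of all genes rose. Eomes, a T-box factor needed for NK maturation, had 11.5 and 13.8 RPKM at 24 h and 15.3 and 38.4 at 72 h (log2 fold change 1.49, SE 0.45, edgeR adjusted p = 0.0428). That call rested on 72 h replicate 2, without which the change was 0.52 (adjusted p = 0.366). It was also lost without 24 h replicate 1 (0.205) or 2 (0.16) and without a 24 h library with IL-21 (0.0649 and 0.065), under total counts (0.101), with edgeR's own filter (0.0782) or no filter (0.0835), with limma-voom (0.0599) and in the 8 libraries without IL-21 (0.095). Id2, an inhibitor of E proteins, had 3270 and 2570, then 4180 and 3960 RPKM, a change of 0.83 that was under the required fold, and Tcf7 12.5 and 9.71, then 21.5 and 20.5 (1.26, adjusted p = 0.068). Tcf7 was called higher with DESeq2 (adjusted p = 0.0122) and with limma-voom (0.0322), and the change of Id2 was 1.02 without 24 h replicate 1. Tbx21, Runx3, Prdm1, Tox and Gata3 were below the filter, each at 6.63 RPKM or less in the 4 libraries. No gene of the IL-15 and JAK-STAT list passed among 10 tested, with medians of 0.26 in the list and a sign that changed under total counts.

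Of 13 tested cell death genes, 2 were called higher (4.97% of all genes were) and 1 lower (9.82%). The higher ones were the inflammatory caspases Casp1 (179 and 160, then 308 and 464) and Casp4 (23.8 and 24.0, then 56.4 and 47.0), which rose by 1.56 and 1.45. Bcl2, which blocks apoptosis, had 18.4 and 16.3, then 27.9 and 22.9 RPKM, a change of 0.89 under the required fold (edgeR adjusted p = 0.00741). Bid was above 10 RPKM in 3 libraries and at 0 in 72 h replicate 2 (12.1 and 10.9, then 17.3 and 0). Without 72 h replicate 1, Bid was called lower, and 4 genes of the list were called higher. None of the 6 tested p53 target genes and none of the 16 oxidative stress genes passed the test.

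Several structural and housekeeping transcripts that often serve as references fell. Actb, cytoplasmic actin, had 1250 and 1270 RPKM at 24 h and 436 and 285 at 72 h (log2 fold change -1.48, SE 0.38, edgeR adjusted p = 0.0245), and 6 of 27 tested actin cytoskeleton genes were lower (9.82% of all genes were), Actg1, Arpc4, Arpc5, Capza1 and Capg with it. Gapdh and Pgk1 of glycolysis fell by 2.1 (SE 0.62) and 1.95 (SE 0.26), with Gapdh at 47.3 and 53.9 and then 11.2 and 7.56 RPKM. In all, 4 of 14 tested reference genes were lower (2 without 24 h replicate 1, 24 h replicate 2 or 72 h replicate 2), against the same 9.82%, and none higher. Actb and Gapdh have processed copies that can take reads. The actin calls numbered 0 without either 24 h library, 1 without 72 h replicate 2 and 9 without 72 h replicate 1, and Actb had adjusted p-values of 0.0884, 0.101 and 0.108 without 24 h replicate 1, 24 h replicate 2 or 72 h replicate 2.

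Sterol synthesis and protein folding genes were lower in part, where 9.82% of all genes were lower and 4.97% higher. In cholesterol and fatty acid synthesis 4 of 9 tested genes fell: Idi1 from 31.5 and 28.8 RPKM to 6.65 and 5.28, Sc5d from 25.2 and 24.8 to 5.18 and 3.57, Msmo1 from 40.7 and 25.9 to 15.6 and 3.83, and Pmvk from 16 and 11 to 0 counts. Among 17 heat shock genes, Hsp90aa1, Hsp90ab1, Cct5 and Ahsa1 fell and none rose. Of 17 MHC class I and antigen processing genes, 5 fell, with the immunoproteasome subunit Psmb9 going from 83.7 and 99.9 to 32.2 and 22.8. Psme1, Erap1, Pdia3 and H2-T22 were the others. For endoplasmic reticulum stress, Ddit3 (CHOP) rose by 1.66 (SE 0.35) from 33.0 and 37.3 RPKM to 65.5 and 106, while Edem1 and Pdia3 fell among 20 tested, near the share over all genes (9.82%). The serine synthesis genes Psat1 and Psph fell within the amino acid response list, and Slc38a2 rose with Ddit3. Without 24 h replicate 1 or 2 neither Ddit3 nor Slc38a2 was called, and the genes called lower were 1 and 2 of the MHC class I list and 2 and 1 of the heat shock list. Without 72 h replicate 2, 2 MHC class I genes were lower.

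In the remaining lists few genes passed, in some of them at or under the shares over all genes (9.82% lower, 4.97% higher). Proteasome genes (1 of 30 lower), translation factors (1 of 29 lower) and splicing factors (3 of 28 higher: Clk1, Rbm39 and Ddx5) had medians from -0.35 to 0.00. Under total counts alone, 1 splicing gene was called higher and 3 lower. Ribosome biogenesis had 1 gene of 16 higher, Nop10, homing and adhesion 1 of 10 higher, Rgs1, and none of the 9 interferon-stimulated genes passed. Autophagy and lysosome genes numbered 1 higher (Lamp2) and 2 lower (Ctsa and Atp6v0d1) of 21, and immediate early genes 1 higher (Btg1) and 1 lower (Ier3) of 7. Of 4 long nuclear RNAs, 2 rose, Malat1 from 190 and 147 RPKM to 339 and 541 (log2 fold change 1.76, SE 0.39) and Snhg1 from 7.76 and 9.58 to 13.4 and 26.5. Neither was called without 24 h replicate 1, 24 h replicate 2 or 72 h replicate 2. Without 72 h replicate 1, 9 proteasome, 5 translation and 6 splicing genes were called in those directions.

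**Figure D4:**
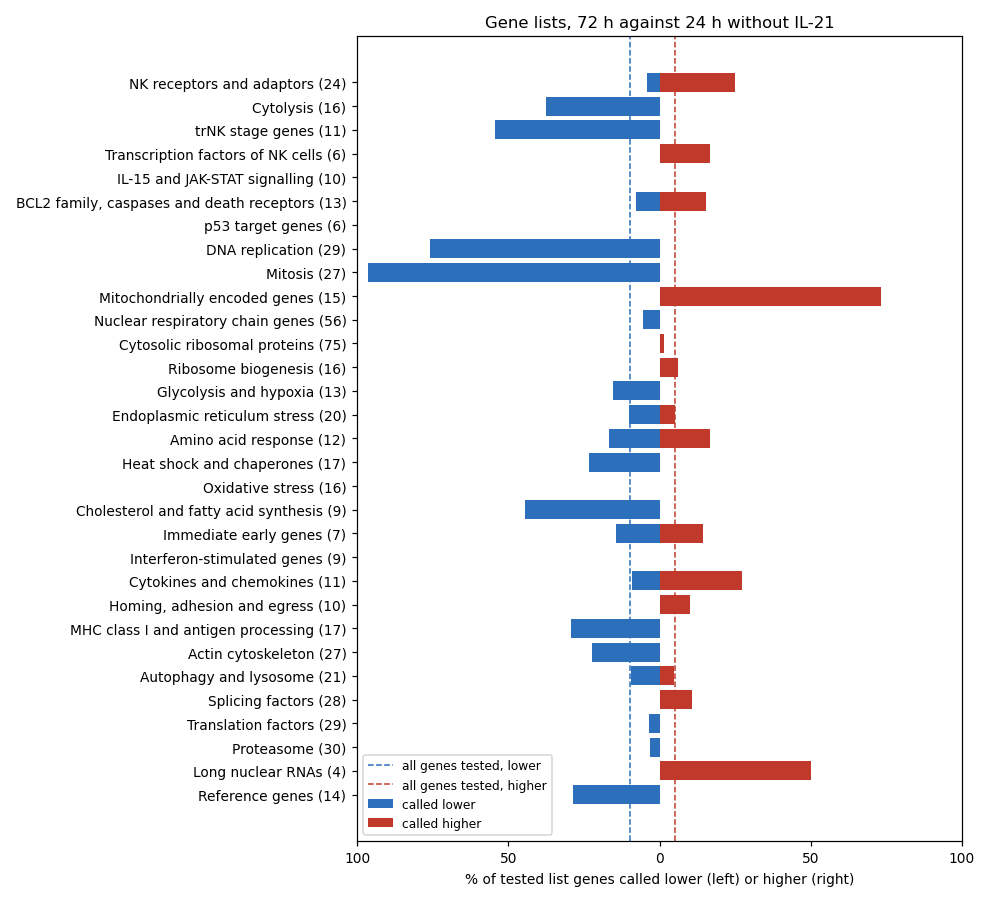
Share of tested members called lower (blue, to the left) or higher (red, to the right) in 31 gene lists, in % of tested members (their number in parentheses), with the shares over all 3503 genes as dashed lines (9.82% lower, 4.97% higher). Mitosis (26 of 27 lower), DNA replication (22 of 29 lower) and mitochondrially encoded genes (11 of 15 higher) have the longest bars among lists with 5 or more tested genes.

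The largest rises were of small RNAs and scarce transcripts. Of the 8 named, Trgj4, Ddx10, AI597479 and D3Ertd751e passed the filter on low values only through 72 h without IL-21, the group where they are high, so a higher level there was a condition of their being tested. Gimap8 passed it only through the 72 h groups, without and with IL-21 (18.8 and 18.4 RPKM with it). A high level at 72 h was thus a condition of its being tested too, also where single libraries were left out. Trgj4, a 61-base joining segment of the T cell receptor gamma locus, had 3.24 and 0.382 RPKM at 24 h and 16.6 and 35.0 at 72 h, from 6 and 1 counts against 29 and 89, and Tcrg-C4 of the same locus rose from 17.7 and 11.2 to 41.2 and 85.3. Rnu2-10 (a U2 spliceosomal RNA, 5.01 and 3.79, then 10.3 and 43.1) and Rn7s1 (a signal recognition particle RNA, 23.5 and 12.7, then 73.6 and 99.3) belong to families of near-identical copies and are uncertain. Ddx10, a helicase of ribosome assembly, rose from 2.69 and 2.95 RPKM to 12.6 and 23.9 (log2 fold change 3.08, SE 0.58, edgeR adjusted p = 0.00516). Gimap8, a GTPase of lymphocyte survival, rose from 9.42 and 5.05 to 25.2 and 46.4 (2.69, SE 0.47), and AI597479 from 1.65 and 0.519 to 11.8 and 11.4. D3Ertd751e completed the 8, with 3.00 and 3.74, then 10.1 and 20.6. Among the genes called higher, the long RNA AW112010 had the highest level, with 20600 and 21700 RPKM at 24 h and 36300 and 43500 at 72 h (1.28, SE 0.39, adjusted p = 0.0463). Of these 9 genes, Gimap8 alone kept its call without each library. Trgj4 and AI597479 lost theirs without 24 h replicate 2 (edgeR adjusted p = 0.0927 and 0.0575), Ddx10 and D3Ertd751e without 24 h replicate 1 (0.0542 and 0.0861) or 2 (0.0511 and 0.0705), and Rnu2-10, Rn7s1, Tcrg-C4 and AW112010 without 24 h replicate 1 (0.154, 0.108, 0.0723 and 0.194), 24 h replicate 2 (0.218, 0.235, 0.156 and 0.193) or 72 h replicate 2 (0.273, 0.0905, 0.0727 and 0.157). Rnu2-10, Rn7s1 and AW112010 also lost the call without a 24 h library with IL-21 (0.0519 to 0.0669) and with edgeR's own filter (0.163, 0.0952 and 0.118), as Trgj4 did with that filter (0.172). Under total counts AW112010 was under the required fold (0.92) and Rnu2-10 had an adjusted p of 0.052, and Rnu2-10 had 0.0551 with limma-voom.

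Other abundant genes that fell were Lgals1, galectin-1, from 3890 and 4190 RPKM to 1300 and 1230 (log2 fold change -1.32, SE 0.28, edgeR adjusted p = 0.00899), and Slc25a5, the mitochondrial ADP/ATP carrier, from 1190 and 1110 to 559 and 332 (-1.04, SE 0.19, adjusted p = 0.0045). Slc25a5 fell below the required fold without 24 h replicate 1 (-0.99) or 72 h replicate 2 (-0.80), and Lgals1 had an adjusted p of 0.0623 without 24 h replicate 2.

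The change varied with gene length. In 4 equal groups of genes by length, from short to long, the median log2 change was 0.22, -0.12, -0.24 and -0.07, and the share called lower was 7.2%, 10.8%, 12% and 9.2%. In 4 equal groups by mean RPKM over the 16 libraries, from low to high, the share called lower was 13.2%, 8.3%, 8.8% and 8.9%. Genes with 0 counts in a 72 h library numbered 165, 80, 21 and 8 over the same 4 groups, so absences were concentrated in genes of low mean level. With edgeR's own filter on low counts, which kept 14888 genes, the medians by length were -0.06, -0.38, -0.23 and 0.02, and the shortest group no longer stood above the longest.

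The culture with IL-21 gives the same contrast in other libraries. There 307 genes were called higher at 72 h (8.76%) and 211 lower (6.02%). The test of the difference between the cultures called 148 genes, 127 with the change larger or less negative with IL-21 (3.63%) and 21 with it below (0.599%). Without 24 h replicates 1 and 2 in turn the difference was called for 90 and 80 genes, without 72 h replicates 1 and 2 for 770 and 312, and, among libraries with IL-21, for 66 and 64 without a 24 h library and 239 and 276 without a 72 h library. The 518 calls with IL-21 became 200 and 206 without a 24 h library of that culture and 862 without its 72 h replicate 1. At 72 h with IL-21, Ccnb2 had 46.0 and 35.8 RPKM and Cenpk 5.37 and 5.28, which were below their own 24 h values with edgeR adjusted p-values of 0.00142 and 0.00025. Gzme had 134 and 50.8 RPKM at 72 h with IL-21, after 471 and 429 at 24 h with it. It was also called lower in that culture (log2 fold change -1.99, edgeR adjusted p = 0.0316). Fitted log2 differences of genes at 0 counts depend on the prior count of the fit and are not given here as sizes.

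In the mitosis list 16 genes fell and 1 rose with IL-21 (6.02% and 8.76% of all genes did), and 12 of the 27 differed between the cultures, all with IL-21 above (3.63% of all genes, with 0.599% below). In the replication list 15 fell with IL-21 and 7 of 29 differed. The 15 mitochondrial genes showed no called difference, with 11 higher in each culture (4.97% of all genes without IL-21 and 8.76% with it) and medians of 1.62 without and 1.73 with IL-21. Stmn1 fell by 3.17 with IL-21 and by 5.75 without, a called difference of 2.57 (edgeR adjusted p = 0.00957). Ccl5 and Ltb rose in both cultures and by more with IL-21. For Spp1 the changes were -1.48 without and -0.72 with IL-21, and the difference of 0.76 did not pass (adjusted p = 0.403). For Klrg1 they were -1.34 and 0.38, with a difference of 1.72 (adjusted p = 0.0776), and for Gzmb -1.26 and -1.27.

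In the other direction, Ddx10, Esf1 and AI597479 rose without IL-21 and had a lower change with it. Ddx10 and AI597479 passed the filter on low values only through 72 h without IL-21. A high level there was a condition of their being tested and favours such a difference. Esf1, a nucleolar factor of ribosome assembly, had 6.66 and 4.96 RPKM at 24 h and 13.4 and 21.7 at 72 h without IL-21. With IL-21 it had 12.3 and 11.5, then 4.32 and 5.05 (log2 fold change -0.94, not called). Nup43, of the nuclear pore, had 25.9 and 19.3, then 35.7 and 34.6 without IL-21 (0.99, not called). With IL-21 it had 39.4 and 45.1, then 12.7 and 5.65, and was called lower (-1.9). The differences of Ddx10 and Esf1 were not called without 24 h replicate 2 (edgeR adjusted p = 0.0875 and 0.0905) or without a 24 h library with IL-21 (0.0618 to 0.0671), nor that of Ddx10 without 24 h replicate 1 (0.0927). The series also holds 2 control libraries of an inhibitor culture, which the study describes as gd6.5 trNK-V cells kept without IL-21 for 72 h, while the labels give no time and another preparation. They had 73.5 and 55.5 RPKM of Ccnb2, which was at 0 counts in both 72 h libraries of the time course, 331 and 182 of Stmn1 and 2300 and 1300 of Spp1. Their mitochondrial shares were 1.89% and 1.35%, against 8.44% and 11.77%. Since the labels do not give their time, no test was made between the cultures, and the late absence of Ccnb2 was not seen in these libraries.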

How the data were processed

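For each library, the authors deposited whole-number read counts per gene without normalization, with each gene's exons and length (GRCm38, mm10). The processing notes name HISAT2 2.1.0 and featureCounts, the methods HISAT2 and RSEM. Library totals were 28541369 to 66468883 counts in the 16 time-course libraries, and the common biological coefficient of variation, the spread between replicates, was 0.414. RPKM were computed here from the counts and deposited lengths. Genes above 10 RPKM in both libraries of at least 1 group were tested with edgeR 4.0.16 (quasi-likelihood, TMM, 1 fit over 8 groups of 2, no covariates) in R 4.3.3. A call needed a fold change over 2 at a Benjamini-Hochberg adjusted p under 0.05. Each standard error was computed from the log2 fold change and the F value. Fold changes are scaled by TMM, so they differ from ratios of the RPKM values. A gene at 0 counts in both 72 h libraries was set to 3 counts per library for a bound. The fit was also run on simulated counts with each gene's spread equal in all groups, which does not cover the disagreement of the 72 h replicates. DESeq2 1.42.0, limma-voom (limma 3.58.1), other scalings, filters, single libraries left out and the replicate block were alternatives. Gene lists were written from general knowledge and partly from genes the study names, and members and lists were chosen with earlier results of these data known. Named are list genes, genes the study names, the 8 largest and 8 most abundant calls each way and 5 differences each way. Predicted genes are counted only, and results of some named genes are not reported here.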

Additional observations from a re-analysis of the deposited data

Results flagged for a closer look

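The 72 h against 24 h change differed between the cultures with and without IL-21 for 148 genes by the test of the difference itself (edgeR quasi-likelihood, a fold difference over 2 at an adjusted p under 0.05). Among the largest fitted differences with IL-21 above were those of Ccnb2 (15.08 on the log2 scale), Gng11 (13.90), Cenpk (13.62) and Gnpda1 (13.46). These 4 genes had 0 counts in both libraries at 72 h without IL-21, so these values depend on the prior count of the fit and are no sizes. Of them, Gng11 passed the filter on low values only through 24 h without IL-21. A high level there was a condition of its being tested and favours both its fall and this difference. Gng11, a G protein gamma subunit, had 28.2 and 11.9 RPKM at 24 h without IL-21. With IL-21 it had 2.37 and 9.81 at 24 h and 1.52 and 18.5 at 72 h (log2 fold change 1.26, not called). Gnpda1, a glucosamine phosphate deaminase, had 28.6 and 24.4 RPKM at 24 h without IL-21. With IL-21 its values were 39.8 and 31.9 at 24 h and 31.6 and 1.04 at 72 h (-0.95, not called). The replicates at 72 h with IL-21 were far apart for both, and the difference of Gnpda1 was not called without a 24 h library with IL-21 (edgeR adjusted p = 0.0502 and 0.0566). The largest differences with IL-21 below were those of AI597479 (-7.68), Ddx10 (-3.88), Esf1 (-2.91), Nup43 (-2.89) and Fra10ac1 (-2.75). AI597479 and Ddx10 were tested only through their level at 72 h without IL-21, which favours a difference in this direction. Fra10ac1 was not called without IL-21 alone (17.6 and 7.75 RPKM at 24 h, 21.4 and 17.2 at 72 h), and its difference was lost without 24 h replicate 2 (edgeR adjusted p = 0.153), without any library with IL-21 at 24 h or 72 h (0.0509 to 0.163), and under total counts alone (0.0544).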

How the results depend on the processing

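With 2 libraries a group, both the number of calls and the balance of their directions moved. Without IL-21, lower calls outnumbered higher ones under each scaling, filter and method. The 518 calls without IL-21 became 1134 of 14888 genes with edgeR's own filter and 1824 of 26407 with no filter, and 3 in a fit on the 4 libraries alone, with a range of 227 to 1139 as single libraries were left out. As a share of the genes tested, the higher genes (4.97%) became 0.934% with edgeR's own filter and 0.954% with no filter, both over more genes, 2.26% under total counts alone, 7.68% with DESeq2, 8.11% at an unadjusted p, 0 in the fit on the 4 libraries (which called 535 genes at an unadjusted p in both directions) and 0.657% to 9.36% with a library left out. The lower genes (9.82%) became 6.68% with edgeR's own filter, 5.95% with no filter (995 and 1572 genes of the larger sets, so that higher genes were 12.3% and 13.8% of the calls instead of 33.6%), 0.0856% in the fit on the 4 libraries and 5.74% to 23.2% with a library left out, the highest without 72 h replicate 1. With IL-21 the 518 calls became 340 with edgeR's own filter and 200 to 862 with a library left out. The 148 called differences became 361 with edgeR's own filter, 840 with no filter, 338 with DESeq2, 542 at an unadjusted p and 64 to 770 with a library left out. The 129 distinct list genes called became 228 with no filter, 3 in the fit on the 4 libraries and 64 to 204 with a library left out. The mean mitochondrial difference of 5.44 points was 2.80 over the 13 protein-coding genes and 3.77 to 7.10 with a library left out. The difference of -2634 genes at equal depth was -3098 for genes with at least 5 expected counts and -2954 to -2314 with a library left out. That of the 100 most abundant genes, 9.47 points, was 4.34 for the 1000 most abundant, 7.09 without mitochondrial genes and 7.44 to 11.5 with a library left out. The 61 genes lost were 120 at limits of 5 and 0.5 RPKM, 26 at 20 and 2, and 81 to 205 with a library left out. The difference between the shortest and longest of 4 equal groups of genes, 0.29, reversed to -0.08 with edgeR's own filter. Ifng ranged from -5.18 to 2.11 with a library left out and reversed to -5.18 (edgeR adjusted p = 0.00136) without 72 h replicate 1. The causes were not tested.

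Same-numbered replicates deviated together in some pairs of groups and not in others (r from -0.39 to 0.48 over 28 pairs of groups, 10 above 0.1, with 0.45 for 24 h with 72 h with IL-21 and -0.02 without it), so the numbers were not taken to pair the samples. With the replicate block 477 genes were called (151 higher, 326 lower), 505 with IL-21, and 131 for the difference. Among named genes AW112010 (edgeR adjusted p = 0.0599), Rnu2-10 (0.0574), mt-Cytb (0.0516) and the difference of Fra10ac1 (0.0587) then lost the call.

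Of the changes of 52 named genes over all alternatives, 880 values stayed on their side of the threshold, 140 kept the direction and lost the call, and 14 gained it. The other value, 1 of Ifng, reversed. Genes called in neither fit count among the 880 whatever their sign, so these are not all of the same direction. The precision is limited by 2 libraries a group and by the disagreement of the 72 h replicates, and a gene at 0 counts at 72 h is known to be below the floor of 3 counts, not to be silent. The leave-outs of libraries with IL-21 were chosen after seeing the data.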
